A study of Mus musculus with 8 samples.

Results

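The 10 chemokine genes described here are Cxcl1, Cxcl2, Cxcl9, Cxcl10, Cxcl12, Cxcl14, Cxcl16, Ccl2, Ccl5 and Ccl9, which were taken by name from a table of 24411 gene symbols. All 10 were present and all 10 passed a filter on low counts that left 12122 genes, although Ccl5 passed it only through its knockout libraries. RNA sequencing measured their transcripts in cultured hepatocytes, the cells that make up most of the liver, from 2 groups of mice. The Taf2 knockout group (4 libraries) came from mice in which Taf2 was conditionally deleted in hepatocytes only, and the wild-type group (4 libraries) from WT mice. Cells of both groups were isolated from liver, plated and harvested 2 days later, with no agent named for either group. The driver of the deletion, the deleted part of the gene, and the strain, age and sex of the mice are not stated, nor is it said that the 4 libraries of a genotype came from separate animals, so p-values measure the spread between these libraries, which may be technical. Taf2 encodes a subunit of TFIID, the general transcription factor that recognises core promoters before RNA polymerase II is brought in.

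Chemokines are small secreted proteins that attract leukocytes by binding G protein-coupled receptors. CXC and CC chemokines are named for the spacing of their leading cysteines. Hepatocytes and the other liver cells make inflammatory chemokines under the control of NF-kB and of interferon-activated factors such as IRF1, whereas homeostatic chemokines such as Cxcl12 come largely from stromal and endothelial cells. Cxcl1, Cxcl2, Cxcl9 and Cxcl10 lie on mouse chromosome 5, and Ccl2, Ccl5 and Ccl9 on chromosome 11, which also holds Cxcl16, well apart from those CC genes.

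Library totals ran from 20287023 to 23933589 estimated counts in the knockout and from 18947059 to 22824568 in the wild type. Taf2 itself stood at 13.9 ± 1.26 CPM (counts normalised to library size) in the knockout and 44.04 ± 2.05 CPM in the wild type (SD, n = 4 each), so 31.7% of the wild-type level remained. Hepatocyte markers were abundant in both groups, summing to between 66559 and 72912 CPM in knockout libraries and between 49769 and 53934 CPM in wild-type libraries. Most of that sum was Alb, at a mean of 55183 CPM in the knockout and 38035 CPM in the wild type. Of 9 hepatocyte markers tested, 4 rose, 2 fell and 3 were not called (median log2 fold change 0.043). Among all genes tested, 30.2% were called higher and 31.2% lower by the test given below, the background for all marker counts here. Markers of other liver cells were also present and moved with the genotype. The 18 macrophage markers summed to between 256 and 288 CPM in knockout libraries and between 93.2 and 122 CPM in wild-type libraries, and 17 of 17 tested rose. Of those 17, 4 passed the count filter only through their knockout libraries, so that their rise was built in, and the other 13 all rose. The 18 endothelial markers summed to between 221 and 229 CPM in knockout libraries and between 82.95 and 92.7 CPM in wild-type libraries, and 16 of 17 tested rose. Of 15 stellate and fibroblast markers tested, 12 rose and 2 fell. Of these, 5 that rose passed the filter only through their knockout libraries, and among the other 10, 7 rose and 2 fell. These marker values stand beside each chemokine result below, and their part in those results was not tested. In such bulk samples more cells of a type cannot be told apart from more RNA per cell.

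Chemokine transcripts did not move as a block. In the knockout Ccl5, Cxcl14, Cxcl10, Cxcl2, Cxcl12 and Cxcl1 rose, Cxcl9, Ccl9 and Cxcl16 fell, and Ccl2, the most abundant, did not pass the test. The calls use edgeR's quasi-likelihood test with p-values adjusted by the Benjamini-Hochberg method over all genes tested and a threshold of 0.05. Among all genes tested 61.4% were called, 30.2% higher and 31.2% lower, so 9 calls among 10 genes are read against a background in which a call is common. Log2 rises of 1 or more were less common, at 6.9% of genes tested, and 4 of the 10 chemokines (Ccl5, Cxcl14, Cxcl10 and Cxcl2) had one. Falls of that size, 2.6% of genes tested, occurred in 0 of the 10. The median log2 fold change of the 10 was 0.54, against -0.0035 over all genes tested. The levels of the 2 genotypes did not overlap for 7 of the 10, against 54.7% of genes tested. Ccl5 had to differ to be tested at all. Among the other 9 chemokines, 8 were called, 3 had a log2 rise of 1 or more, 6 did not overlap and the median log2 fold change was 0.31. Summed over the 10 genes, the level was 352 ± 36.7 CPM in the knockout and 354 ± 19.3 CPM in the wild type (SD, n = 4 each). Most of the sum was Ccl2, Cxcl1 and Cxcl16, and within it rises such as that of Cxcl1 were offset by falls such as those of Cxcl16 and Ccl9.

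**Figure D1:**
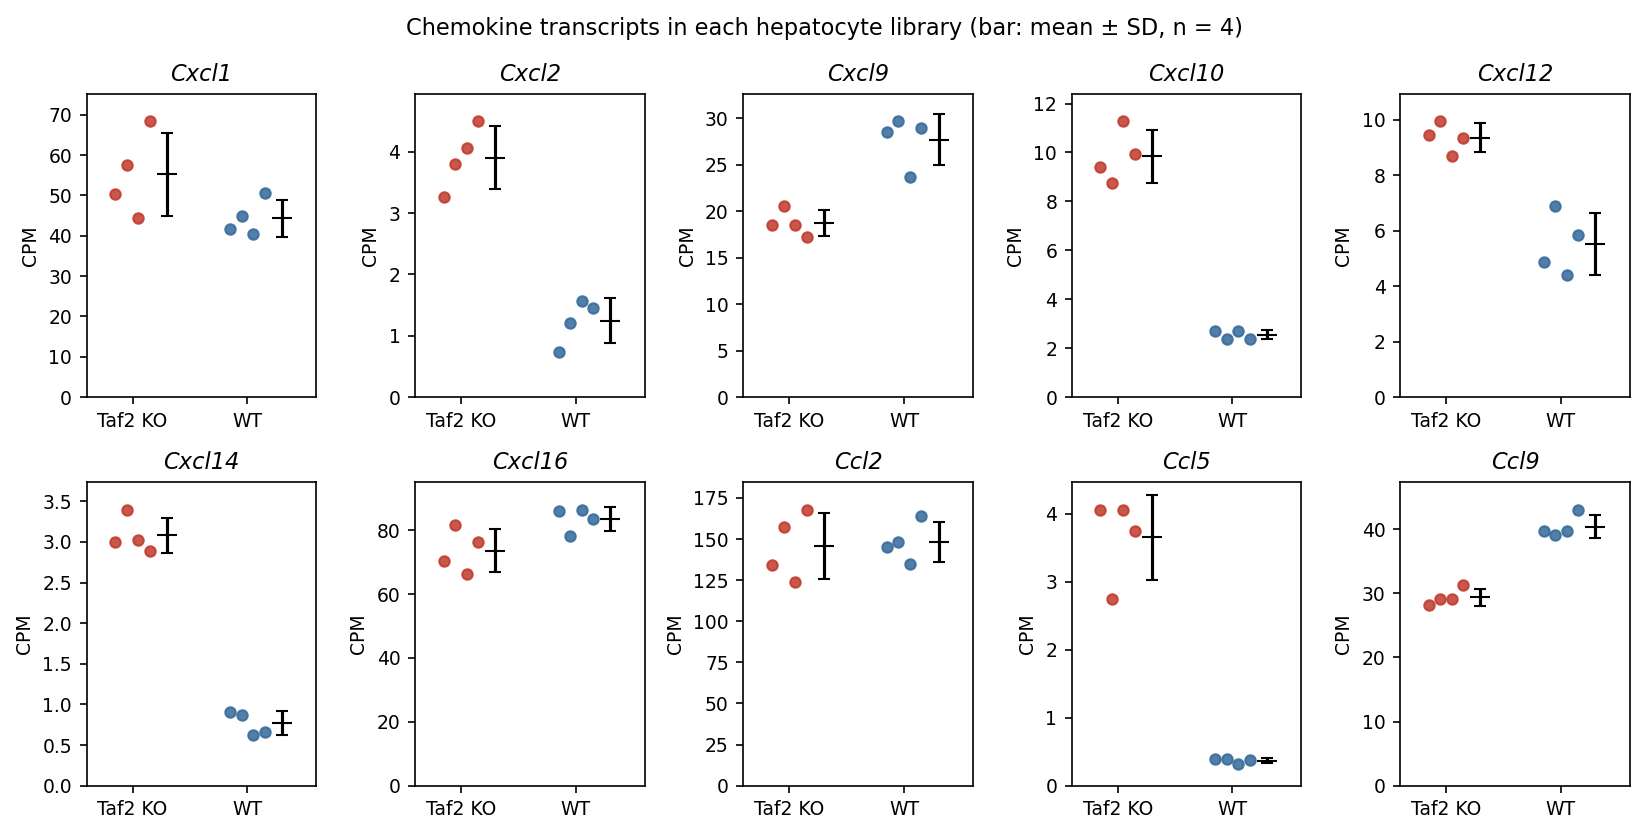
Level of each chemokine transcript in CPM in the 4 Taf2 knockout libraries (red, left) and the 4 wild-type libraries (blue, right), with the mean and SD as a bar beside each group and each vertical axis starting at 0. Knockout points lie wholly above wild-type points for Cxcl2, Cxcl10, Cxcl12, Cxcl14 and Ccl5, wholly below for Cxcl9 and Ccl9, and overlap them for Cxcl1, Cxcl16 and Ccl2.

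Cxcl1 and Cxcl2 encode neutrophil attractants that share the receptor CXCR2, and their genes are neighbours. Because both rose, their promoters are shown for comparison, the 220 bases before the RefSeq transcript start on build GRCm38.p6, the assembly that mm10 names. Capitals mark matches to the NF-kB consensus, the sequence bound by the factor best known for inducing both genes.
Cxcl1 promoter, chr5:90891025-90891244, plus strand: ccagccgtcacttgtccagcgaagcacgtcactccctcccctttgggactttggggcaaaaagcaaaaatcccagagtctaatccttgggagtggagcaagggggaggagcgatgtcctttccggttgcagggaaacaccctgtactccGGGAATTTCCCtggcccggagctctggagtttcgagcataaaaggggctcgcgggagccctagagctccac
Cxcl2 promoter, chr5:90903679-90903898, plus strand: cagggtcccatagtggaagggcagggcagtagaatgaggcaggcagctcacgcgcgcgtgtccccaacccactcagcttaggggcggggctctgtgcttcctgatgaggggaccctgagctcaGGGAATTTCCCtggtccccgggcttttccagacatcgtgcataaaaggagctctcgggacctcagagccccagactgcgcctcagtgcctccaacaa
The same 11 letters are in capitals in both, starting 71 bases before the start in Cxcl1 and 97 bases before it in Cxcl2, and they hold 2 overlapping matches, 1 on each strand. The consensus was found on either strand in 4.51% of 32851 promoters of 300 bases, and in 4 of the 7 chemokine promoters available. Those 4 were Cxcl1, Cxcl2 and Cxcl10, which rose, and Ccl9, which fell. Cxcl12 and Cxcl14, which rose, and Cxcl9, which fell, had no match. Promoters of Cxcl16, Ccl2 and Ccl5 were not available, and a link between the consensus and the direction of change was not tested.

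Cxcl1 had 50.4, 57.6, 44.3 and 68.4 CPM in knockout libraries, against 41.6, 44.8, 40.3 and 50.6 CPM in wild-type libraries. The groups overlapped, with knockout replicate 4 highest and wild-type replicate 3 lowest. Cxcl1 rose with a log2 fold change of 0.31 (SE 0.094; edgeR adjusted p = 0.00709), a call that DESeq2 did not make (adjusted p = 0.0602). Without knockout replicate 4 the log2 fold change was 0.20 (edgeR adjusted p = 0.0339).

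Cxcl2 had 3.26, 3.80, 4.06 and 4.50 CPM in knockout libraries, against 0.738, 1.22, 1.57 and 1.45 CPM in wild-type libraries. Every knockout library was above every wild-type library. The log2 fold change was 1.66 (SE 0.18; edgeR adjusted p = 1.37e-07). The pair therefore changed by unequal amounts. Within a library the ratio of Cxcl1 to Cxcl2 counts does not depend on how libraries are scaled, and it was 15.4, 15.1, 10.9 and 15.1 in the knockout, against 54.8, 36.2, 25.4 and 34.3 in the wild type. It was lower in every knockout library, by a difference of -1.38 in mean log2 ratio (exact two-sided permutation test p = 0.0286, adjusted over 3 such ratios p = 0.0286). That is the smallest p that 4 libraries against 4 can give.

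Cxcl9 and Cxcl10 encode ligands of CXCR3, the receptor that draws activated T cells and NK cells, and are known as genes induced by interferon gamma (Cxcl10 also by type I interferon). They lie close together on chromosome 5 and went in opposite directions, so their promoters are shown, 220 bases before the start on the same build. Capitals mark the NF-kB consensus, the core of the interferon-stimulated response element (GAAANNGAAA on either strand, in 3.44% of promoters) and TATAAA (on either strand, in 13.6% of promoters).
Cxcl9 promoter, chr5:92328080-92328299, minus strand: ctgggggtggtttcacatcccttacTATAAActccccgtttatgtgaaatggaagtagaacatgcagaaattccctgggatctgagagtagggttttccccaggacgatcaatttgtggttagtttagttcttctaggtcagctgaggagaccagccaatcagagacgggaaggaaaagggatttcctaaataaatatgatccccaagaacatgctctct
Cxcl10 promoter, chr5:92348890-92349109, minus strand: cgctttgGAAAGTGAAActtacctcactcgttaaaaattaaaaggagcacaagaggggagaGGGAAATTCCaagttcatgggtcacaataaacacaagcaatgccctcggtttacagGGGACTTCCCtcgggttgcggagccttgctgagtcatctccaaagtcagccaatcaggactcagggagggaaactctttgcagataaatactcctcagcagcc
In Cxcl10 the capitals are 1 match to the response element core, starting 213 bases before the start, and 2 matches to the NF-kB consensus, starting 159 and 103 bases before it. In Cxcl9 they are a TATAAA that starts 195 bases before the start, and the window had no match to either of the other patterns. Of the 7 chemokine promoters available, 2 held the response element core (Cxcl10 and Cxcl14, which rose) and 2 held TATAAA (Cxcl9 and Ccl9, which fell). A link between either pattern and the direction of change was not tested.

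Cxcl10 had 9.40, 8.74, 11.3 and 9.95 CPM in knockout libraries, against 2.69, 2.38, 2.71 and 2.39 CPM in wild-type libraries. The knockout values were all above the wild-type values, which lay close together. Cxcl10 rose by 1.95 on the log2 scale (SE 0.11; edgeR adjusted p = 5.21e-12), about 3.87-fold. Art3, which overlaps Cxcl10 on the opposite strand, had 2 to 5 counts in each knockout library and 0 to 1 in each wild-type library. Without a stated strand setting, it is not known whether reads of such overlapping genes were told apart by strand. Cxcl10 had only whole counts, so none of its reads were divided with another gene.

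Cxcl9 had 18.5, 20.6, 18.5 and 17.2 CPM in knockout libraries, against 28.5, 29.7, 23.6 and 29.0 CPM in wild-type libraries. All knockout values were below all wild-type values, the nearest wild-type library being replicate 3. The log2 fold change was -0.57 (SE 0.072; edgeR adjusted p = 8.72e-07). The ratio of Cxcl10 to Cxcl9 counts was 0.507, 0.425, 0.610 and 0.578 in knockout libraries, against 0.0951, 0.0809, 0.116 and 0.0831 in wild-type libraries. It was higher in every knockout library, 5.66-fold on the mean log2 ratio (exact two-sided permutation test p = 0.0286, adjusted over the 3 ratios p = 0.0286). With Cxcl10 higher and Cxcl9 lower in every knockout library, the ratio had to separate, so this p adds no evidence to those results.

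Cxcl11, the remaining CXCR3 ligand gene of the cluster, which RefSeq lists as a transcribed pseudogene on this build, was near the limit of detection. It had 0.550, 0.600, 0.519 and 0.616 CPM in knockout libraries, against 0.304, 0.146, 0.104 and 0.0469 CPM in wild-type libraries, and it passed the filter only through the knockout libraries. A gene tested on that account had to be higher there, so its log2 fold change of 1.84 (SE 0.42; edgeR adjusted p = 0.00074) is given as a description. Without wild-type replicate 1, the highest of that group, it was 2.46. The receptor gene Cxcr3 had 0.0428 ± 0.0494 CPM in the knockout and 0.0261 ± 0.0522 CPM in the wild type (SD, n = 4 each), too few counts to be tested.

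Ccl5, also called RANTES, and Ccl9, a chemokine of mice, both bind CCR1. Ccl5 had 4.06, 2.75, 4.06 and 3.74 CPM in knockout libraries, against 0.390, 0.389, 0.313 and 0.375 CPM in wild-type libraries. Those levels came from 55 to 96 counts per knockout library and 6 to 9 per wild-type library, with no overlap between the groups. Part of the gene is overlapped by Gm32650, a long non-coding RNA gene of the annotation. The log2 fold change was 3.30 (SE 0.22; edgeR adjusted p = 5.76e-11), of a gene that passed the count filter only through its knockout libraries. With no count filter, where the 16533 genes with any count enter the fit, Ccl5 rose by 3.29 on the log2 scale (SE 0.22, edgeR adjusted p = 1.18e-18). T cells and NK cells are known sources of Ccl5. Their 13 measured markers, Cd3d, Cd3g, Cd8a, Nkg7 and Ncr1 among them, summed to at most 0.0846 CPM in a knockout library and 0.104 CPM in a wild-type library, and 9 of the 13 had no count in any library. Macrophage markers rose in the same libraries, as given above, and the cell source of Ccl5 was not tested.

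Ccl9 had 28.1, 29.1, 29.1 and 31.3 CPM in knockout libraries, against 39.7, 39.1, 39.7 and 43.1 CPM in wild-type libraries. Every knockout library was below every wild-type library, and replicates lay within a few CPM of each other. Ccl9 fell by 0.46 on the log2 scale (SE 0.049; edgeR adjusted p = 1.02e-07). Ccl9 is best known from myeloid cells. Macrophage markers rose in these libraries, and the cell source of Ccl9 was not tested. The ratio of Ccl5 to Ccl9 counts was 0.145, 0.0951, 0.140 and 0.120 in knockout libraries, against 0.0104, 0.0106, 0.00854 and 0.00924 in wild-type libraries. It was higher in every knockout library, 12.8-fold on the mean log2 ratio (exact two-sided permutation test p = 0.0286, adjusted over the 3 ratios p = 0.0286). With Ccl5 higher and Ccl9 lower in every knockout library, the ratio had to separate. Its p adds no evidence to those results, and Ccl5 passed the count filter only through its knockout libraries. The next protein-coding gene beside Ccl9 is Ccl6, which encodes another CCR1 ligand of mice and went up, to 1.59 ± 0.347 CPM in the knockout, against 0.528 ± 0.118 CPM in the wild type (SD, n = 4 each; edgeR adjusted p = 1.49e-05).

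**Figure D2:**
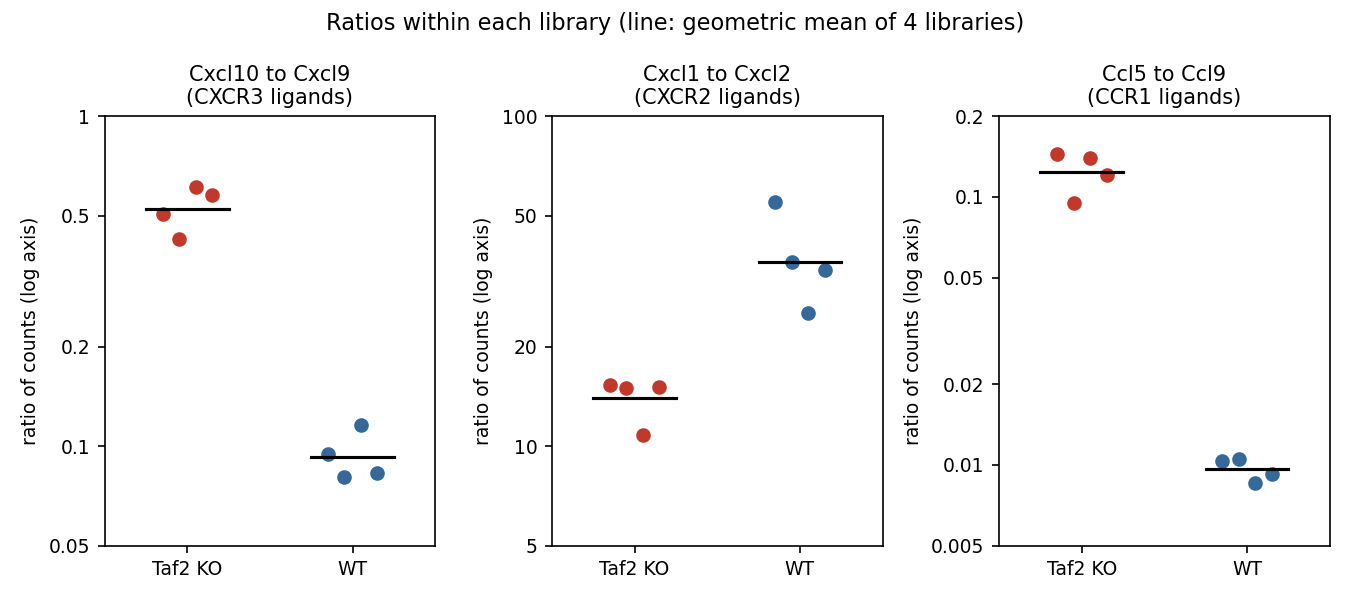
Ratio of the counts of 2 chemokines that share a receptor, within each library and not corrected for gene length, on log axes (points: the 4 Taf2 knockout libraries in red at left and the 4 wild-type libraries in blue at right; line: geometric mean). Knockout and wild-type points do not overlap in any of the 3 panels, with Cxcl10 to Cxcl9 and Ccl5 to Ccl9 higher in the knockout and Cxcl1 to Cxcl2 lower. The separation of Cxcl10 to Cxcl9 and of Ccl5 to Ccl9 follows from that of the single genes.

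Ccl2, the monocyte attractant that acts through CCR2, had 134, 157, 124 and 168 CPM in knockout libraries, against 145, 148, 135 and 164 CPM in wild-type libraries. The groups overlapped, and the lowest and the highest value were both in knockout libraries. The log2 fold change was -0.03 (edgeR adjusted p = 0.783), with a 95% interval from -0.18 to 0.13. Ccl7, the next gene on chromosome 11 and also a ligand of CCR2, stood lower, at 4.02, 3.75, 3.50 and 5.31 CPM in knockout libraries, against 5.81, 6.03, 5.53 and 6.61 CPM in wild-type libraries. Those groups did not overlap, and Ccl7 fell by 0.54 on the log2 scale (SE 0.12; edgeR adjusted p = 0.000679).

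Cxcl16 encodes a membrane-anchored chemokine that binds CXCR6 and is released by the protease ADAM10. It had 70.4, 81.7, 66.2 and 76.2 CPM in knockout libraries, against 85.9, 78.3, 86.4 and 83.4 CPM in wild-type libraries. Knockout replicate 2 lay above wild-type replicate 2, so the groups overlapped. Cxcl16 fell by 0.18 on the log2 scale (SE 0.052; edgeR adjusted p = 0.00449). Zmynd15, which overlaps it on the opposite strand, had 12 to 27 counts in each knockout library and 9 to 20 in each wild-type library. The sheddase gene Adam10 was at 95.6 ± 5.07 CPM in the knockout and 87.8 ± 3.37 CPM in the wild type (SD, n = 4 each; edgeR adjusted p = 0.0143), a call that ended without wild-type replicate 1 (adjusted p = 0.066). No count of Cxcr6 was found in any library, which allows at most between 0.127 and 0.157 CPM in each (3 counts, counting error only).

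Cxcl12 encodes the homeostatic ligand of CXCR4 that retains blood cell precursors in their niches. It had 9.44, 9.94, 8.69 and 9.33 CPM in knockout libraries, against 4.86, 6.90, 4.38 and 5.86 CPM in wild-type libraries. The knockout libraries were all higher and closer together than the wild-type libraries. Cxcl12 rose by 0.76 on the log2 scale (SE 0.11; edgeR adjusted p = 4.89e-06).

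Cxcl14, a conserved epithelial chemokine whose receptor is not settled, had 3.00, 3.40, 3.03 and 2.89 CPM in knockout libraries, against 0.911, 0.875, 0.626 and 0.656 CPM in wild-type libraries. All 4 knockout libraries were well above all 4 wild-type libraries. Cxcl14 rose by 1.99 on the log2 scale (SE 0.18; edgeR adjusted p = 5.92e-09). Endothelial markers, and most stellate and fibroblast markers, rose in the same libraries, and both chemokines are known from such cells. Summed stellate and fibroblast markers were lower, between 175 and 189 CPM in knockout libraries and between 204 and 224 CPM in wild-type libraries. That sum includes the 2 tested markers of this list that fell. They were the smooth muscle gene Tagln (log2 fold change -2.34, edgeR adjusted p = 2.3e-18) and Acta2 (log2 fold change -1.33, edgeR adjusted p = 1.28e-07).

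Levels of different genes were compared per kilobase of annotated exon. Per kilobase, the order in the knockout was Ccl2 (179 CPM per kilobase), Cxcl1 (57.9), Cxcl16 (27.3), Ccl9 (9.78), Cxcl10 (8.997), Ccl5 (6.87), Cxcl9 (6.48), Cxcl2 (3.52), Cxcl14 (1.69) and Cxcl12 (1.31). Of neighbours in that order, Ccl9 and Cxcl10 overlapped across libraries, as did Ccl5 and Cxcl9. In the wild type the order of the same quantity was Ccl2 (182 CPM per kilobase), Cxcl1 (46.5), Cxcl16 (30.9), Ccl9 (13.4), Cxcl9 (9.59), Cxcl10 (2.33), Cxcl2 (1.12), Cxcl12 (0.768), Ccl5 (0.690) and Cxcl14 (0.420). There Cxcl2 overlapped with Cxcl12, and Cxcl12 with Ccl5. The leading 4 genes kept their places, whereas Cxcl10 stood above Cxcl9 in the knockout and below it in the wild type. The 3 transcript forms of Cxcl12 were merged into 7160 exonic bases, so its level per kilobase is a low estimate.

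Of 30 other chemokine ligands, 6 were tested, 2 rose (Cxcl11 and Ccl6) and 2 fell (Cxcl13 and Ccl7), shares near the 30.2% higher and 31.2% lower among all genes tested. The median of the 6 log2 fold changes was 0.0069. Cxcl13, the B cell attractant, had 0.395 ± 0.199 CPM in the knockout and 0.847 ± 0.178 CPM in the wild type (SD, n = 4 each; edgeR adjusted p = 0.00673). All 4 wild-type libraries but only 1 knockout library passed the count filter for it, so the filter favoured a fall. Ccl25, known from the thymus and gut, was at 2.54 ± 0.478 CPM in the knockout and 2.51 ± 0.436 CPM in the wild type (edgeR adjusted p = 0.959). Ccl27a, a skin chemokine whose reads are shared with a near-identical copy, was at 2.16 ± 0.523 CPM in the knockout and 2.13 ± 0.258 CPM in the wild type (edgeR adjusted p = 0.991), an uncertain value. A further 11 ligands had no count in any library.

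Receptors were scarce, as only 4 of 22 in the list were tested and 10 had no count in any library. All 4 of those tested rose, against 30.2% of all genes tested. Of the 4, 3 are atypical receptors, which bind chemokines or the attractant chemerin without attracting cells. Ackr3, which takes up Cxcl12, had 5.21, 5.10, 5.40 and 3.51 CPM in knockout libraries, against 1.26, 0.972, 0.626 and 0.562 CPM in wild-type libraries, with no overlap (log2 fold change 2.47, SE 0.21; edgeR adjusted p = 2.32e-09). Cxcr4, the signalling receptor of Cxcl12, had 1.48, 2.35, 2.25 and 1.99 CPM in knockout libraries, against 0.607, 0.486, 0.626 and 0.796 CPM in wild-type libraries, again with no overlap (log2 fold change 1.66, SE 0.22; edgeR adjusted p = 2.34e-06). Ackr2, a scavenger of CC chemokines, was at 1.96 ± 0.359 CPM in the knockout and 0.699 ± 0.0901 CPM in the wild type (SD, n = 4 each; edgeR adjusted p = 4.11e-06). Ccrl2, which binds chemerin, was at 1.76 ± 0.303 CPM in the knockout and 1.22 ± 0.259 CPM in the wild type, with overlapping libraries (edgeR adjusted p = 0.0251). The call of Ccrl2 ended in 7 of 14 alternatives (adjusted p up to 0.0959), which were DESeq2, thinning, and leaving out knockout replicate 1 or 3 or wild-type replicate 1, 3 or 4. With a minimum of 50 counts in place of 10, 1 of these 4 was still tested and called. The 18 untested receptors of the list, with Cxcr2, Cxcr3, Cxcr6, Ccr1 and Ccr2 among them, had means of at most 0.069 CPM in either genotype.

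**Figure D3:**
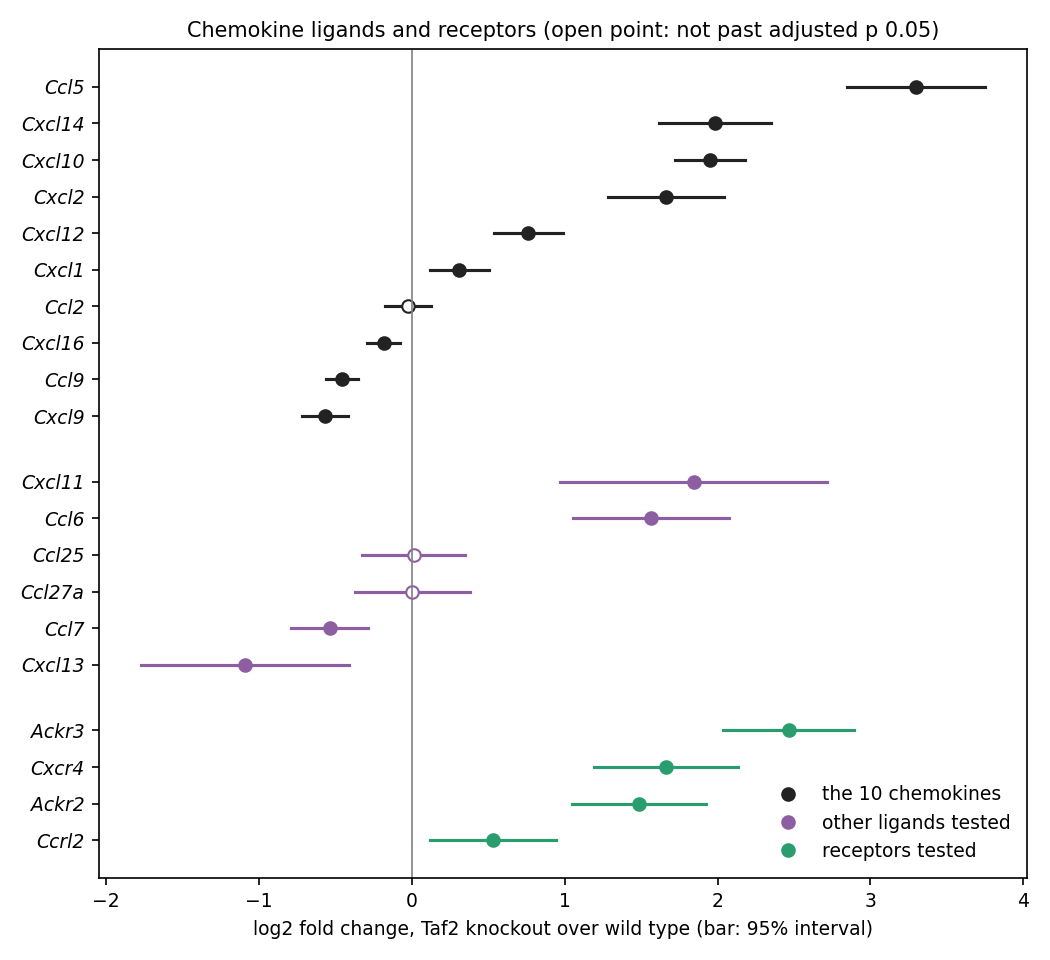
Log2 fold change, Taf2 knockout over wild type, of every chemokine ligand and receptor tested, with its 95% interval (black: the 10 chemokines; purple: other ligands; green: receptors; open point: not past an adjusted p of 0.05). The 10 chemokines run from 3.30 for Ccl5 to -0.57 for Cxcl9, and all 4 receptors lie above 0.

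The cytokines known to induce these chemokines were barely detected. Tnf, Il1a, Il1b, Ifnb1 and Il6 had mean levels of at most 0.186 CPM in the knockout and 0.046 CPM in the wild type, and Ifng had no count in any library. Of the 14 cytokine receptors and Toll-like receptor pathway genes tested, 4 rose and 5 fell (median log2 fold change -0.041), or 28.6% higher and 35.7% lower, near the 30.2% and 31.2% among all genes tested. Tnfrsf1b, a TNF receptor gene, rose by 0.70 (SE 0.040), Il1rap by 0.49 (SE 0.067) and the co-receptor gene Cd14 by 0.44 (SE 0.037). Tnfrsf1a, another TNF receptor gene, fell by 0.21 on the log2 scale (SE 0.034). The interleukin-1 receptor gene Il1r1 fell by 0.80 on the log2 scale (SE 0.066), and Ifnar1, a subunit of the type I interferon receptor, by 0.41 (SE 0.037). Ifngr1, the interferon gamma receptor gene and the most abundant of the group, was at 208 ± 6.24 CPM in the knockout and 212 ± 8.48 CPM in the wild type (edgeR adjusted p = 0.491).

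In the list of NF-kB and interferon factor pathway genes 10 of 18 rose and 2 fell (median log2 fold change 0.25), against 30.2% higher and 31.2% lower among all genes tested. Those that rose were of both kinds. They included Irf1, Irf7, Irf9 and Stat2, which encode transcription factors of the interferon response. Irf7 stood at 90.2 ± 7.64 CPM in the knockout and 17.1 ± 1.58 CPM in the wild type, Irf9 at 45.7 ± 2.66 CPM in the knockout and 24.6 ± 2.31 CPM in the wild type, and Stat2 at 113 ± 5.12 CPM in the knockout and 74.3 ± 1.47 CPM in the wild type (SD, n = 4 each). Of genes around NF-kB, Nfkbiz rose by 0.70 (SE 0.062), Nfkbia, which encodes an inhibitor that holds NF-kB in the cytoplasm, by 0.41 (SE 0.040) and Bcl3 by 0.39 (SE 0.036), Nfkbiz and Bcl3 encoding nuclear proteins related to such inhibitors. The NF-kB subunit gene Nfkb2 fell by 0.24 on the log2 scale (SE 0.053) and the feedback inhibitor gene Tnfaip3 by 0.15 (SE 0.050). Rela, with the highest mean over the 8 libraries, rose by 0.12 (SE 0.037). Without knockout replicate 3, Tnfaip3 did not pass (edgeR adjusted p = 0.0746).

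Among 10 genes for chemokine turnover and presentation 5 rose and 3 fell, against 30.2% higher and 31.2% lower among all genes tested, so the share that fell was near that background. The rises with the smallest p were in Sdc4, a heparan sulphate proteoglycan gene, which had 518 ± 34.1 CPM in the knockout and 315 ± 16.2 CPM in the wild type, in Zfp36, which encodes a protein that destabilises cytokine and chemokine mRNA, at 69.9 ± 2.37 CPM in the knockout and 50.2 ± 4.45 CPM in the wild type, and in Zc3h12a, an endoribonuclease gene, at 9.42 ± 0.569 CPM in the knockout and 5.03 ± 0.805 CPM in the wild type. The falls were in Sdc2, a further proteoglycan gene (log2 fold change -0.50, SE 0.051), and in the heparan sulphate synthesis genes Ext1 (-0.46, SE 0.037) and Ndst1 (-0.12, SE 0.038). All of these calls used edgeR with the threshold given above.

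Markers of neutrophils, the cells that CXCR2 ligands attract, were near 0. The 9 measured markers summed to between 0.2998 and 0.568 CPM in knockout libraries and between 0.0486 and 0.281 CPM in wild-type libraries, and Mpo, Elane, Camp and Ltf had no count in any library.

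**Figure D4:**
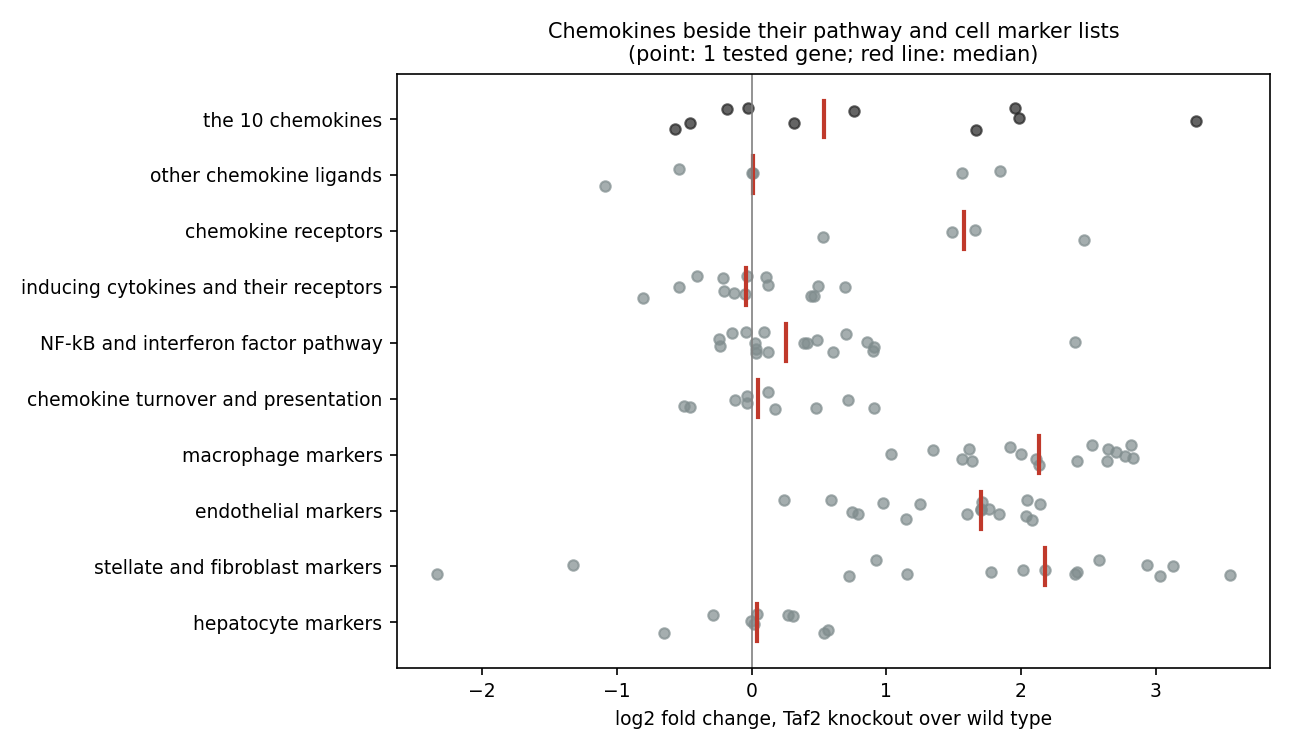
Log2 fold change, Taf2 knockout over wild type, of every tested gene (point) in the 10 chemokines and in the lists described beside them, with the median of each list as a red line. The 10 chemokines spread on both sides of 0, from -0.57 to 3.30, with a median of 0.54, whereas the macrophage and endothelial marker lists have medians of 2.14 and 1.70 (the first over 17 genes, 4 of them tested only through their knockout libraries), and the hepatocyte markers a median of 0.043.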

How the data were processed

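The authors deposited expected counts per gene, estimated counts that RSEM made on mm10 per the submitters' processing notes. Its version, the aligner and the strand setting are not stated there. Per the labels' protocols, an Illumina TruSeq kit was used and sequencing took 2 rounds. The 8 columns whose names match library names in the labels were used, and 8 further columns were not. Counts were rounded, filtered with filterByExpr (minimum count 10, minimum total 15), scaled by TMM and compared with edgeR 4.0.16 in R 4.3.3 (quasi-likelihood test, genotype as the only term, Benjamini-Hochberg adjustment over 12122 genes). SE is the absolute log2 fold change over the square root of F. CPM uses TMM-scaled library sizes. None of the 10 chemokines had fractional counts, so RSEM divided none of their reads with other genes. Libraries of a genotype differed from each other beyond sampling noise (chi-square over genes). Simulated data with known changes were used to test this fit. The alternatives tried were upper-quartile and RLE scaling, DESeq2 1.42.0, other count filters, thinning to the smallest library, a replicate block, and leaving out each library.

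Promoters are from RefSeq and positions from its GRCm38.p6 annotation; exon lengths are from GENCODE, by RefSeq accession. Members and the 12 lists were chosen with earlier results of these data known. Named are Taf2, the 10 chemokines and, of other lists, in each direction up to 3 called genes with the smallest adjusted p and the gene with the highest mean CPM, narrowed for marker lists to sums. Genes outside that rule (Adam10, Ccrl2, Cxcr3, Cxcr6 and other scarce receptors, the inducing cytokines, Ccl25, Ccl27a, Irf1, Nfkbiz, Bcl3, Nfkbia) were named after their values were seen. Some genes are not reported here and were left out of the lists, though they stayed in the fit.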

Additional observations from a re-analysis of the deposited data

Results flagged for a closer look

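Within groups of 4, a library was singled out where its distance to the nearest other library, as a share of the group's range, exceeded Dixon's 95% critical value. This was so in 11 of 108 groups of values examined, and chance alone gives about 1 in 20. The ratio of Cxcl1 to Cxcl2 was 10.9 in knockout replicate 3, with the other knockout libraries between 15.1 and 15.4. Ccl9 was at 43.1 CPM in wild-type replicate 4, with the others between 39.1 and 39.7 CPM. Ackr3 was at 3.51 CPM in knockout replicate 4, with the others between 5.10 and 5.40 CPM. Among the other genes named, Tnfrsf1a had 114.6 CPM (wild-type replicate 3), Ifngr1 198.6 CPM (knockout replicate 4), Rela 170.1 CPM (knockout replicate 1), Tnfaip3 63.4 CPM (knockout replicate 3), Bcl3 84.7 CPM (knockout replicate 3), Stat2 76.5 CPM (wild-type replicate 3), Nfkbia 43.2 CPM (wild-type replicate 3) and Adam10 82.8 CPM (wild-type replicate 1). Each of these libraries stayed on its group's side for Ccl9, Ackr3 and the ratio.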

How the results depend on the processing

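Under 15 alternatives, the counts of the 10 chemokines that rose or fell stayed within 1.5 times of those given, and every called chemokine kept its direction. The call of Cxcl1 ended with DESeq2, and that of Cxcl9, Cxcl10, Cxcl12, Cxcl14, Cxcl16, Cxcl2, Ccl5 and Ccl9 in none of the 15. Ccl2 passed in none of them, and leaving out 1 library at a time its log2 fold change ran from -0.094 to 0.051, with a changed sign without knockout replicate 1 (0.018) or 3 (0.051) and without wild-type replicate 4 (0.026). Ccl25 and Ccl27a also passed in none of the 15 and changed sign in some: Ccl25 with thinning (-0.025), Ccl27a with no count filter (-0.0054) or the replicate block (-0.0079), and leaving out 1 library at a time they ran from -0.10 to 0.14 and from -0.10 to 0.17. Among other ligands, 4 rose and 4 fell with no count filter, and 0 rose and 1 fell with a minimum of 50 counts, where 1 receptor rose; fewer genes are tested there. Leaving out 1 library at a time, the difference in mean log2 ratio ran from 2.43 to 2.61 for Cxcl10 to Cxcl9, from -1.55 to -1.18 for Cxcl1 to Cxcl2 and from 3.60 to 3.81 for Ccl5 to Ccl9. With 3 libraries against 4 the exact test cannot give a p below 0.0571, so these ratios could not pass it. Over all genes, same-numbered libraries of the 2 genotypes deviated together only weakly (correlations of -0.069 to 0.011). That does not exclude a pairing that touches few genes, and what the numbers mean is not stated. Cxcl1 and Ccl2 were both lowest in replicate 3 and highest in replicate 4 of either genotype, as given below. With the replicate block the fit called 3666 genes higher and 3771 lower, against 3663 and 3784 without it. Cxcl1 then had a log2 fold change of 0.31 (SE 0.047, edgeR adjusted p = 3.59e-05), against an SE of 0.094 without the block. Depth limits Ccl5, Cxcl14, Cxcl2, Cxcl11, Ccl6, Cxcr4, Ackr2, Ackr3 and Ccrl2, which rest on few wild-type counts. It also limits Cxcl13, which has few knockout counts.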

Other observations

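Cxcl1 and Ccl2 varied together between libraries of the same genotype. In the knockout both were lowest in replicate 3 (44.3 and 124 CPM) and highest in replicate 4 (68.4 and 168 CPM), and in the wild type both were lowest in replicate 3 (40.3 and 135 CPM) and highest in replicate 4 (50.6 and 164 CPM). As a result Cxcl1 counts as a percentage of Ccl2 counts separated the genotypes where Cxcl1 alone did not, at 37.6%, 36.6%, 35.8% and 40.7% in knockout libraries, against 28.6%, 30.3%, 29.9% and 30.8% in wild-type libraries. This pair was chosen after its values were seen, so no test is given.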
